A study of Danio rerio with 6 samples.

Results

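The genes described here encode the machinery that carries proteins and RNA across the nuclear envelope of the zebrafish: importins, exportins, the Ran cycle and the nuclear pore. They were chosen by name. A transcript cluster, the unit that the array summarizes as 1 value, was taken if its platform annotation gave exactly 1 gene symbol and that symbol named a karyopherin (*kpna*, *kpnb*, *ipo*, *tnpo*, *xpo*), a numbered nucleoporin (*nup*), *ran*, a *rangap* or a *ranbp* gene. This gave 62 clusters of 56 genes, out of 19260 genes with such clusters and 75212 clusters in all. For each gene the cluster with the highest mean log2 value over the 6 arrays was kept. Only 3 genes had more than 1 cluster, so this choice left 53 genes untouched. The mean log2 values of the kept and the next cluster were 9.25 and 5.36 for *kpnb3*, 6.70 and 6.65 for *ipo13b* and 7.15 and 6.63 for *ranbp2*. No gene was removed for a low value, and all 56 lay at or above 4.77, the median level of all clusters. The family was put together with the difference in *kpna2* already known from these arrays, so *kpna2* is described below with its values and no test.

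RNA came from whole embryos at 5 dpf. Of the 6 Affymetrix arrays, 3 held RNA of tdp1WT embryos and 3 of tdp1-/- embryos, whose *tdp1* gene was disrupted by CRISPR-Cas9 frameshift deletions early in its coding sequence, in fish of mixed London wild-type and nacre stock. The sources used here do not say which allele the arrayed embryos carried or how many embryos were pooled for an array. Both genotypes were kept for 16 hours from 4 dpf in 500 nM camptothecin (CPT), a poison of Top1, and no untreated embryos were analysed here, so every difference below is between genotypes under CPT. Each genotype has arrays 1 to 3, from biologically independent experiments. The labels do not say whether arrays of the same number in both genotypes share an experiment. The values are log2 values after RMA, and the value of 1 gene cannot be set against that of another, since each cluster has its own probes.

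Proteins too large to diffuse through the nuclear pore are carried by karyopherins. Importin alpha proteins recognise the classical nuclear localization signal of a cargo and bind importin beta, which takes the complex through the pore, and other members of the importin beta family bind their cargo directly. In the nucleus the GTP-bound form of the small GTPase Ran releases the cargo, while exportins bind cargo together with Ran-GTP and let go of it in the cytoplasm, where RanGAP stimulates hydrolysis. The pore itself is built of nucleoporins arranged as an inner ring, outer rings of the Y complex, a central channel, cytoplasmic filaments and a nuclear basket. In mammals, importin alpha genes differ in where they are used, and KPNA2 is known for high levels in proliferating and embryonic cells.

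The median of an array was 4.66 to 4.87, and Pearson's r between arrays was 0.969 to 0.988 over all clusters. As a check of the labels, *tdp1* measured 5.59, 5.34 and 5.85 in tdp1WT and 5.18, 5.17 and 5.24 in tdp1-/-, with no overlap. Markers of the main tissues of an embryo were present, with means in tdp1WT of 11.8 for the muscle actin *actc1b*, 11.6 for the skin keratin *krt4*, 9.60 for the neuronal *elavl3* and 8.54 for the embryonic globin *hbae1.1*. In RNA of whole embryos, fewer cells that express a gene and less RNA of it per cell cannot be told apart.

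Among the importin alpha genes, *kpna2* was lower in tdp1-/- embryos and the means of its 6 paralogs lay close to their tdp1WT means. The *kpna2* cluster measured 5.74, 5.78 and 5.93 on the arrays of tdp1WT replicates 1, 2 and 3. On the arrays of tdp1-/- replicates 1, 2 and 3 it measured 5.28, 5.10 and 5.23. The lowest tdp1WT array therefore lay above the highest tdp1-/- array, and within each genotype the 3 arrays stayed within a narrow range (SD 0.10 in tdp1WT and 0.10 in tdp1-/-, n = 3 arrays each). The means were 5.82 in tdp1WT and 5.20 in tdp1-/-, a log2 fold change of -0.62 or 1.53-fold lower. In the same-numbered pairs the log2 difference was -0.46, -0.68 and -0.70 for replicates 1, 2 and 3. Leaving out each of the 6 arrays in turn gave log2 fold changes between -0.66 and -0.56. These values describe the arrays for which *kpna2* was singled out and are no test of its difference.

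**Figure D1:**
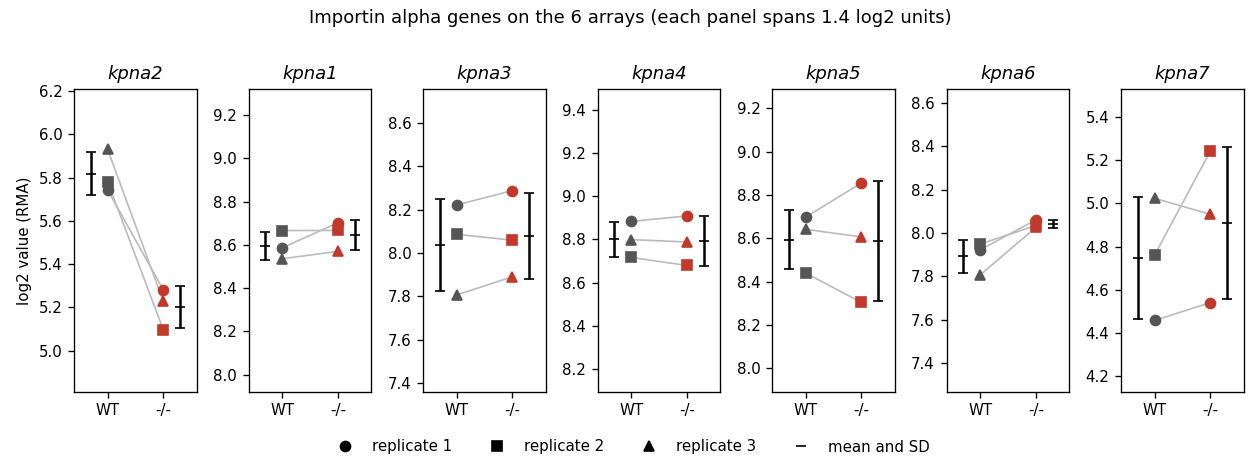
Log2 values (RMA) of the 7 importin alpha genes on the arrays of tdp1WT (grey, WT) and tdp1-/- (red, -/-) embryos, with same-numbered arrays joined by a line and the mean and SD of 3 arrays beside the points, each panel spanning the same number of log2 units. In *kpna2* all 3 lines fall, from between 5.74 and 5.93 to between 5.10 and 5.28. The lines of its paralogs run nearly level, in mixed directions or, in *kpna6*, slightly upward, and that of replicate 2 in *kpna7* rises by 0.48.

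The paralogs *kpna1*, *kpna3*, *kpna4*, *kpna5*, *kpna6* and *kpna7* had log2 fold changes from -0.0077 to 0.16. *Kpna4* had the lowest of these, at -0.0077 (95% confidence interval, -0.33 to 0.32), with tdp1WT arrays at 8.88, 8.72 and 8.80 and tdp1-/- arrays at 8.91, 8.68 and 8.79. For *kpna5* the values were 8.70, 8.44 and 8.64 in tdp1WT and 8.86, 8.30 and 8.61 in tdp1-/-. Its lowest array was replicate 2 in both genotypes, and its log2 fold change was -0.0043 (95% interval, -0.43 to 0.42). *Kpna3* measured 8.22, 8.09 and 7.81 in tdp1WT and 8.29, 8.06 and 7.89 in tdp1-/-, so that replicate 3 was the lowest in both, at a log2 fold change of 0.041 (95% interval, -0.37 to 0.45). *Kpna1* measured 8.59, 8.67 and 8.54 in tdp1WT and 8.70, 8.67 and 8.57 in tdp1-/-, at 0.050 (95% interval, -0.26 to 0.36). The genotypes overlapped in these 4 genes, and in *kpna3* the same-numbered arrays lay closer together than the arrays of 1 genotype.

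*Kpna6* was the paralog whose genotypes did not overlap, and its difference pointed the other way from that of *kpna2*. It measured 7.92, 7.95 and 7.81 in tdp1WT and 8.06, 8.03 and 8.03 in tdp1-/-. All 3 pairs were higher in tdp1-/-, by 0.14, 0.086 and 0.22. The log2 fold change was 0.15 (95% interval, -0.15 to 0.45, two-sided exact permutation test, p = 0.1, the smallest that 3 arrays against 3 allow). Every gene whose genotypes do not overlap has this p, here and below, so it adds nothing to the lack of overlap. *Kpna7*, whose mammalian counterpart works in oocytes and early embryos, measured 4.46, 4.76 and 5.02 in tdp1WT and 4.54, 5.24 and 4.95 in tdp1-/-. Its pairs differed by 0.083, 0.48 and -0.074. Its 95% interval, -0.37 to 0.70 around 0.16, was the broadest of the 7. The interval of none of the 6 paralogs reached the -0.62 estimated for *kpna2*. That estimate has an interval of its own from limma, -0.94 to -0.29, given for size only. It overlapped the intervals of *kpna3*, *kpna4*, *kpna5* and *kpna7*. The distance of *kpna2* from its paralogs is therefore a description and no test, since it was singled out for its difference.

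Across the whole family, *kpna2* was the 1 gene of 56 that was lower at an unadjusted p under 0.05 from limma and a fold change over 1.2, the fold that the study used, and none was higher. Over all genes 1.04% were lower and 0.852% higher by this rule, and nothing can be read from the single call, which the choice of the family fixed. Of the other 55 genes none was under an unadjusted p of 0.05 from limma in either direction, beside 1.89% of all genes. With the replicate number as a block none of the 55 was called either, beside 2.49% of all genes lower and 1.55% higher. No gene of the array was under an adjusted p of 0.05, and that of each of the 55 was 1 from limma. The 55 log2 fold changes ran from -0.24 in *nup133* to 0.16 in *kpna7*, with a median of -0.0076 beside -0.0050 over all genes, and 31 of 55 were negative (56.4%, beside 51.4% of all genes). All 55 lay within 1.2-fold of tdp1WT, beside 88.7% of all genes and 90.0% of the genes at or above the median level.

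The precision of these values limits what could have been seen. Every one of the 55 intervals included 0, and 47 lay within 1.5-fold in both directions. The intervals of 5 genes, *nup133*, *nup155*, *nup160*, *tnpo2b* and *ipo7*, reached below the estimate of *kpna2*, so they do not exclude a difference of that size. The median standard error of the 56 log2 fold changes was 0.15, against 0.17 over all genes. The SD of 3 arrays had a median of 0.13 in tdp1WT and 0.15 in tdp1-/- over the 56 genes, and of 0.16 and 0.19 over all genes.

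**Figure D2:**
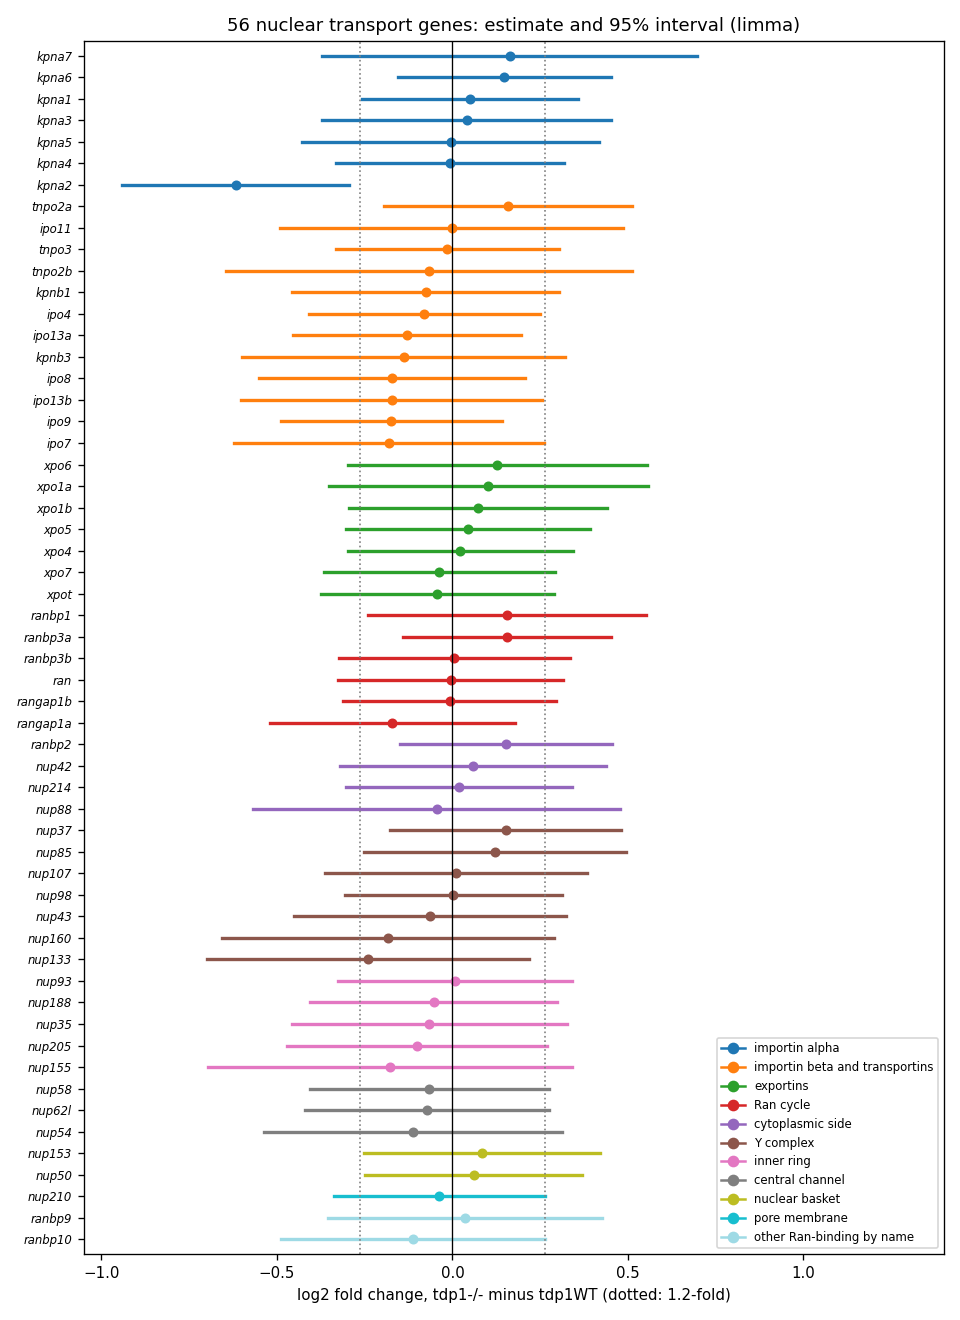
Log2 fold change (tdp1-/- minus tdp1WT, points) of the 56 genes with its 95% confidence interval from limma (lines, n = 3 arrays each), grouped and coloured by role, with dotted lines at 1.2-fold. *Kpna2* at -0.62 lies alone on the left, its line is shown for size only and is no test, and the other 55 points lie between -0.24 and 0.16 with intervals that include 0.

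The genotypes did not overlap in 5 of the 56 genes (8.93%, beside 7.72% over all genes). Left without *kpna2*, which was singled out for its difference, the count was 4 of 55 (7.27%). *Kpna2* and *ipo9* were lower on every tdp1-/- array, beside 4.08% of all genes, and *kpna6*, *ranbp3a* and *ranbp2* were higher, beside 3.64%. *Ipo9*, whose mammalian counterpart carries histones into the nucleus, measured 7.84, 7.62 and 7.70 in tdp1WT and 7.55, 7.51 and 7.58 in tdp1-/-. Its genotypes were narrowly apart, with a log2 fold change of -0.17 (95% interval, -0.49 to 0.14, two-sided exact permutation test, p = 0.1). *Ranbp3a*, whose mammalian counterpart assists exportin 1, measured 7.56, 7.60 and 7.56 in tdp1WT and 7.76, 7.74 and 7.69 in tdp1-/-. It had little spread in either genotype and a log2 fold change of 0.15 (95% interval, -0.14 to 0.45, two-sided exact permutation test, p = 0.1). For *ipo9* and *ranbp3a* the lack of overlap alone fixes this p.

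Import receptors of the importin beta family lay mostly below 0, with no call among them. Of 12 genes, 11 had a lower mean in tdp1-/-, the median log2 fold change was -0.10 and the range was -0.18 to 0.16. *Kpnb1*, the importin beta that pairs with importin alpha, measured 8.74, 8.54 and 8.50 in tdp1WT and 8.75, 8.40 and 8.39 in tdp1-/-. Its genotypes overlapped, with a log2 fold change of -0.076 (95% interval, -0.46 to 0.30). *Ipo8* measured 6.93, 6.86 and 6.82 in tdp1WT and 6.78, 6.44 and 6.89 in tdp1-/-, a log2 fold change of -0.17 (95% interval, -0.55 to 0.21), and tdp1-/- replicate 2 stood below the other 5 arrays. The same array was the lowest of the 6 for the kept cluster of *kpnb3*, another name of importin 5, at 8.84 against 9.11 to 9.43. It was also the lowest for *ipo7*, at 7.73. The log2 fold changes of these genes were -0.14 and -0.18. In the other cluster of *kpnb3*, tdp1-/- replicate 2 was not the lowest array, at 5.28 beside 5.24 in tdp1-/- replicate 1. The pairs of that cluster differed by -0.31, -0.12 and 0.19.

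The pair of replicate 2 held most of this difference. In *ipo13b*, an importin that also works in export in mammals, the pairs of the kept cluster differed by -0.057, -0.63 and 0.16. Its other cluster gave -0.083, -0.29 and -0.12, so the sign in replicate 3 depends on the cluster read. In *ipo11* the pairs differed by 0.31, -0.42 and 0.10. Without tdp1-/- replicate 2 the count of negative values fell from 11 to 7 of 12 and the median was -0.019. Leaving out any other array left 9 to 11 negative, with medians from -0.20 without tdp1-/- replicate 1 to -0.056 without tdp1WT replicate 1. Without tdp1WT replicate 2 the median was -0.10. *Ipo13a* was lower in all 3 pairs by a similar amount, at -0.12, -0.12 and -0.16, with tdp1WT at 5.19, 5.24 and 5.40 and tdp1-/- at 5.07, 5.12 and 5.24. *Ipo4* was at -0.080, *tnpo2b* at -0.067 and *tnpo3*, whose counterpart carries splicing factors, at -0.014. The transportin *tnpo2a* was the 1 gene above 0, at 8.96, 8.90 and 8.85 in tdp1WT and 9.08, 9.24 and 8.86 in tdp1-/-, a log2 fold change of 0.16 (95% interval, -0.20 to 0.51).

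Exportins lay on both sides of 0. Of 7 genes, 5 were positive and 2 negative, from -0.043 to 0.13, and all overlapped between genotypes. *Xpo1a* and *xpo1b* are the zebrafish copies of the exportin for leucine-rich export signals. *Xpo1a* measured 7.90, 7.98 and 7.50 in tdp1WT and 7.95, 8.09 and 7.63 in tdp1-/-, higher in tdp1-/- in all 3 pairs by 0.054, 0.12 and 0.13, with a log2 fold change of 0.10 (95% interval, -0.35 to 0.56). *Xpo1b* measured 7.80, 7.88 and 7.69 in tdp1WT and 7.82, 8.08 and 7.68 in tdp1-/-, with a log2 fold change of 0.073 (95% interval, -0.30 to 0.44). In both copies replicate 3 was the lowest array of its genotype. By current gene models *xpo1b* is the 1 gene of the 56 on the chromosome of *tdp1*.

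The other exportins carry more particular cargo. *Xpo6*, whose counterpart carries actin, had the highest value of the group, 0.13 (95% interval, -0.30 to 0.55), from 7.52, 7.57 and 7.03 in tdp1WT and 7.60, 7.48 and 7.42 in tdp1-/-, and most of it lay in the pair of replicate 3. *Xpot*, the exportin of tRNA, was at -0.043 (95% interval, -0.38 to 0.29), and *xpo5*, of microRNA precursors, at 0.045 (95% interval, -0.30 to 0.39). *Xpo4* and *xpo7* were at 0.022 and -0.037.

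No gene of the Ran cycle was called. *Ran* itself measured 10.08, 10.16 and 9.91 in tdp1WT and 10.08, 10.03 and 10.03 in tdp1-/-, with a log2 fold change of -0.0052 (95% interval, -0.33 to 0.32). For the GTPase-activating protein, *rangap1b* was at -0.0076 (95% interval, -0.31 to 0.30) and its copy *rangap1a* at -0.17 (95% interval, -0.52 to 0.18). *Rangap1a* measured 6.72, 6.53 and 6.63 in tdp1WT and 6.27, 6.58 and 6.52 in tdp1-/-, and its value came mostly from the pair of replicate 1, at -0.45, beside 0.050 and -0.11. *Ranbp1*, a helper of RanGAP in the cytoplasm, had a log2 fold change of 0.16 (95% interval, -0.24 to 0.55), and *ranbp3b*, the copy of *ranbp3a*, of 0.0053 (95% interval, -0.32 to 0.33).

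The 22 nucleoporin genes had a median log2 fold change of -0.041, with 12 negative and 10 positive and none called. In the Y complex, which forms the outer rings, *nup133* had the lowest value, at 6.06, 5.79 and 6.05 in tdp1WT and 6.05, 5.40 and 5.73 in tdp1-/-. Its log2 fold change was -0.24 (95% interval, -0.70 to 0.22), and the pair of replicate 1 differed by -0.0096. Its partner *nup107* was at 0.0099 (95% interval, -0.36 to 0.38), so the lower values of *nup133* were not shared by all genes of the complex. *Nup160* was at -0.18, *nup43* at -0.063, *nup85* at 0.12 and *nup37* at 0.15 (95% interval, -0.18 to 0.48). *Nup98*, a gene that encodes both a mobile nucleoporin and a Y complex subunit, was at 0.0031.

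In the inner ring 4 of 5 genes were negative, among them *nup155*, which measured 8.28, 8.10 and 7.75 in tdp1WT and 8.22, 7.82 and 7.55 in tdp1-/-. Replicate 3 was the lowest array in both genotypes, and its log2 fold change was -0.18 (95% interval, -0.70 to 0.34). *Nup205* was at -0.10, *nup35* at -0.065, *nup188* at -0.053 and *nup93* at 0.0068. Without tdp1-/- replicate 2, 1 of the 5 was negative, and leaving out any other array left 3 to 5 negative. The channel genes *nup54*, *nup62l* and *nup58*, whose proteins form the barrier to free diffusion, were at -0.11, -0.072 and -0.066, and the basket genes *nup153* and *nup50* at 0.085 and 0.061. The membrane nucleoporin *nup210* was at -0.037 (95% interval, -0.34 to 0.26).

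On the cytoplasmic side, *ranbp2*, the large nucleoporin that binds Ran and holds RanGAP at the pore, measured 7.05, 7.13 and 7.03 in tdp1WT and 7.21, 7.18 and 7.29 in tdp1-/- by its kept cluster. This cluster did not overlap between genotypes and gave a log2 fold change of 0.15 (95% interval, -0.15 to 0.46). The lack of overlap alone fixes its p (two-sided exact permutation test, p = 0.1). The annotation gives the name to 5 clusters, and the other 4 gave -0.042, -0.075, -0.12 and 0.16, so the direction for this gene depends on the cluster read. *Nup42* was at 0.058, *nup214* at 0.018 and *nup88* at -0.045 (95% interval, -0.57 to 0.48). The genes *ranbp9* and *ranbp10*, which are named for Ran binding but whose mammalian counterparts work in a ubiquitin ligase complex, were at 0.036 and -0.11.

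The pairs of arrays showed how far the family moved together. In the pairs of replicates 1, 2 and 3 the difference was negative in 27, 35 and 27 of the 56 genes, with medians of 0.017, -0.096 and 0.0069, beside -0.025, 0.0083 and 0 over all genes. The array of tdp1-/- replicate 2 was the lowest of the 6 in 24 of the 56 genes (42.9%), beside 26.5% of all genes. Its import receptors had a median difference of -0.23 from their tdp1WT partners, with 11 of 12 below them. The arrays of replicate 1 were the highest in 17 genes for tdp1WT and in 18 for tdp1-/-, the latter 32.1% of the family beside 13.8% of all genes. All 3 pairs were lower in 8 genes, or 14.3% beside 16.8% of all genes, and higher in 6, or 10.7% beside 14.4%. Without tdp1-/- replicate 2, 20 of the 55 genes other than *kpna2* were negative in place of 31. Their median went from -0.0076 to 0.018, while that of all genes went from -0.0050 to 0.0099. Leaving out any other array gave 27 to 38 negative, with medians from -0.064 without tdp1-/- replicate 1 to 0.0010 without tdp1WT replicate 1. The medians of all genes in these 2 settings were 0.00099 and -0.0016.

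**Figure D3:**
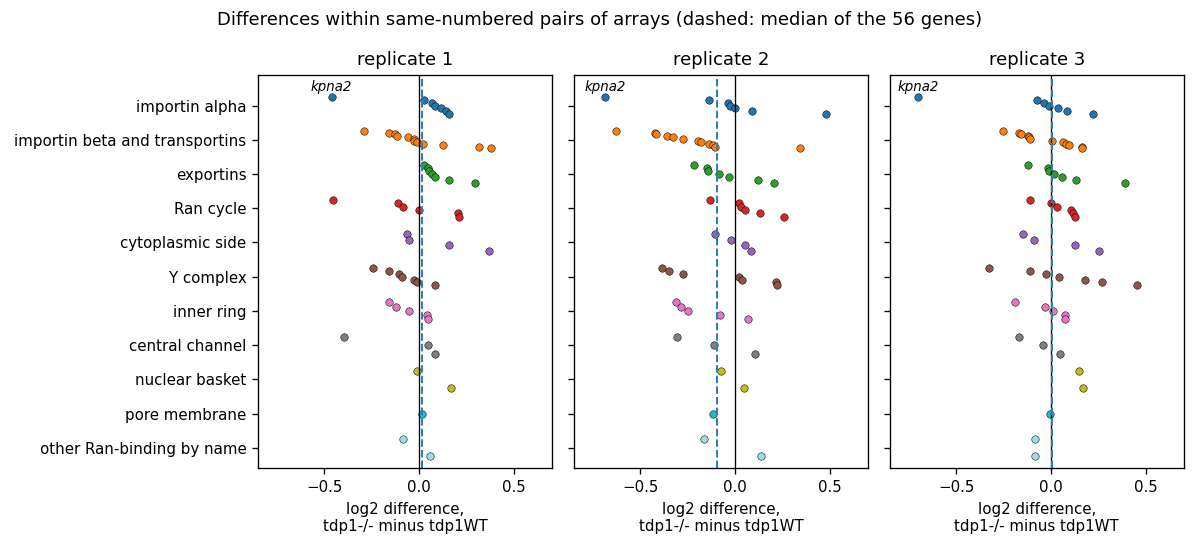
Log2 difference (tdp1-/- minus tdp1WT) of each of the 56 genes in the same-numbered pairs of arrays, by role, with the median of the 56 as a dashed line. *Kpna2*, which was singled out for its difference, is the leftmost point in every pair, at -0.46, -0.68 and -0.70. *Rangap1a* lies close to it in the pair of replicate 1, at -0.45, and *ipo13b* in that of replicate 2, at -0.63. Of the 12 import receptors, 11 lie to the left of 0 in the pair of replicate 2, against 8 and 6 in the pairs of replicates 1 and 3.

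Other genes of nuclear transport, from a list of 40 names outside the family, of which 32 were matched, also held no call. None of the 32 was lower or higher from limma at the same fold and p, beside 1.04% and 0.852% of all genes. None was under an unadjusted p of 0.05 with the block or without, beside 1.89% of all genes without it. Their median was -0.027, with 20 of 32 negative and a range from -0.32 to 0.41. *Cse1l*, the exportin that returns importin alpha to the cytoplasm, measured 8.84, 8.72 and 8.72 in tdp1WT and 8.76, 8.82 and 8.62 in tdp1-/-, a log2 fold change of -0.028 (95% interval, -0.35 to 0.29). *Rcc1*, which loads Ran with GTP on chromatin, was at 0.076 (95% interval, -0.35 to 0.50). The smallest p belonged to *rangrf*, which acts on nucleotide release from Ran, with 5.50, 5.66 and 5.61 in tdp1WT and 5.46, 6.39 and 6.15 in tdp1-/-. In tdp1-/- its replicate 1 lay below all tdp1WT arrays and the other arrays above them (log2 fold change 0.41, two-sided exact permutation test, p = 0.4). Without tdp1-/- replicate 1 it was called higher, at 0.68, a setting that called 318 of all 19260 genes higher. *Ddx19a*, an RNA helicase of mRNA export by name, was at -0.32 (two-sided exact permutation test, p = 0.4). It was called lower, at -0.53, without tdp1-/- replicate 2, beside 201 of all genes. Its cluster was dim, at 4.61 in tdp1WT and 4.29 in tdp1-/-, below the 4.77 median level of all clusters.

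Genes of proliferating cells had lower values in the same comparison as *kpna2*. Of 18 listed, 14 were matched, and 2 of the 14 were lower from limma at the fold and p above (beside 1.04% of all genes) and none higher. Their median log2 fold change was -0.26, with 13 of 14 negative, and the mean level of the list was 6.15 to 6.44 on the tdp1WT arrays and 5.89 to 6.18 on the tdp1-/- arrays. The mitotic kinase gene *cdk1* measured 5.00, 4.87 and 5.61 in tdp1WT and 4.57, 4.50 and 4.68 in tdp1-/-, a log2 fold change of -0.58. The thymidylate synthase gene *tyms* measured 7.76, 7.42 and 8.07 in tdp1WT and 7.14, 7.09 and 7.40 in tdp1-/-, at -0.54. In both the genotypes did not overlap, while in *pcna*, of the replication clamp, they did, at -0.078, and in the mitotic kinase gene *plk1*, at -0.076. In all, 3 of the 14 did not overlap, each of them lower (21.4%, beside 4.08% of all genes). All 3 pairs were lower in 8 of the 14 and higher in 0, beside 16.8% and 14.4% of all genes. The list was chosen with earlier results of these data known, so these counts are a description.

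These calls depended on single arrays and on the block. None of the 14 was called without tdp1WT replicate 3, without tdp1-/- replicate 1 or without tdp1-/- replicate 2, and the median was -0.070 without the last. Of all 19260 genes these settings called 107, 281 and 201 lower. Without tdp1WT replicate 1 the count was 1, beside 95 of all genes, and without tdp1WT replicate 2 it was 4, beside 217. With the replicate block it was 4 (beside 2.49% of all genes), as *rrm1*, of the ribonucleotide reductase, and *mcm3*, of the replicative helicase, were also lower, at -0.54 and -0.34. *Kpna2* was at -0.56 without tdp1-/- replicate 2 and at -0.56 without tdp1WT replicate 3. These values are a description and set it apart from no other gene, since it was singled out for its difference.

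**Figure D4:**
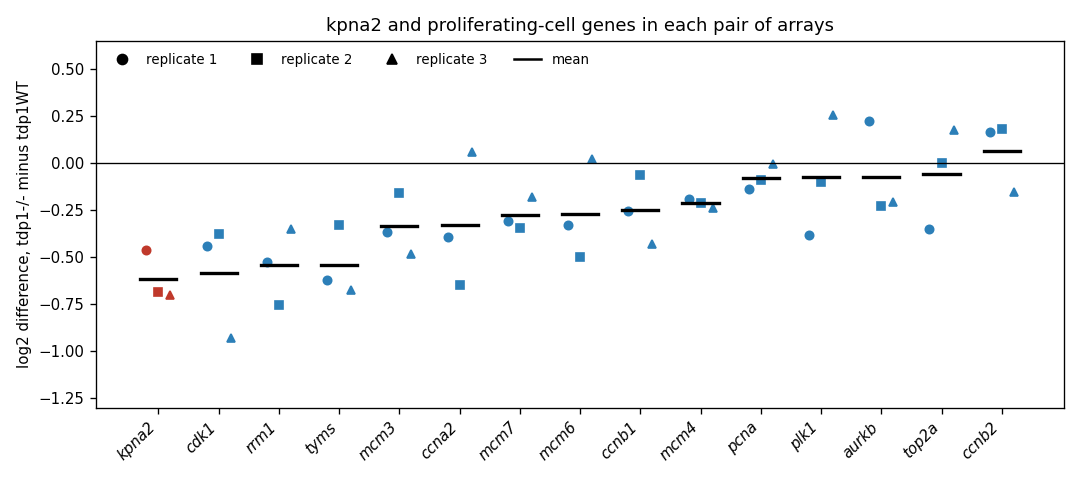
Log2 difference (tdp1-/- minus tdp1WT) of *kpna2* (red) and the 14 matched genes of proliferating cells (blue) in each same-numbered pair of arrays, with the mean of the 3 pairs as a bar. *Kpna2* at -0.62 lies beside *cdk1*, *rrm1* and *tyms* at -0.58, -0.54 and -0.54, while the 5 genes on the right, from *pcna* on, lie between -0.078 and 0.064.

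Of the marker lists of other cell types, those of epidermis and erythrocytes held calls. Of 4 matched epidermis markers 2 were lower, *icn2* at -0.63 and the keratin gene *krt5* at -0.50, while *krt4* was at -0.14 with overlapping genotypes and *epcam* at 0.20, higher in 2 of 3 pairs. The mean level of the list was 7.92 to 8.09 in tdp1WT and 7.58 to 7.83 in tdp1-/-. Of 3 erythrocyte markers 2 were lower, *hbae1.1* at -0.43 and *alas2*, of heme synthesis, at -0.47, with the mean level at 6.27 to 6.61 in tdp1WT and 5.99 to 6.30 in tdp1-/- (both lists beside a background of 1.04% lower). *Alas2* was not called with the block or with array weights, *krt5* was not called without tdp1WT replicate 1, tdp1WT replicate 3 or tdp1-/- replicate 2, and neither erythrocyte gene was called without tdp1WT replicate 1 or 3 or tdp1-/- replicate 2 or 3. None of 6 muscle, 5 neuron, 1 liver or 4 germ line markers was called in either direction, beside 1.04% lower and 0.852% higher of all genes. None of them was under an unadjusted p of 0.05 from limma, beside 1.89% of all genes. The smallest p in these lists belonged to *tnnt3a* and *ckmb* of muscle (-0.24 and -0.13), *snap25b* and *stmn1b* of neurons (-0.26 and 0.14), *apoa2* of liver (0.12) and *ddx4* and *piwil1* of the germ line (-0.19 and 0.090). Of these *snap25b* was called lower, at -0.42, without tdp1-/- replicate 1, beside 281 of all genes. The part of these markers and of the proliferation genes in the value of *kpna2* was not tested.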

How the data were processed

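The authors labelled RNA with the Affymetrix WT plus protocol and ran RMA on the scanned arrays in the Transcriptome Analysis Console. The deposited table gives each array a log2 value per transcript cluster, with background corrected, arrays quantile normalized and probes summarized by RMA. No source used here names the genome build or the annotation release. The platform annotation gives 1 symbol to 20806 of the 75212 clusters, several to 855 and none to 53551. RefSeq (assembly GRCz12tu) held all 62 clusters of the family under the same symbols by Entrez ID and was otherwise used only to find which genes share a chromosome with *tdp1*.

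On these log2 values limma 3.58.1 (lmFit and eBayes, under R 4.3.3) compared tdp1-/- with tdp1WT over all clusters, with Benjamini-Hochberg adjustment over all of them. A call is a fold change over 1.2 with p under 0.05 before adjustment. The script was tested on simulated arrays. The number of arrays limits the precision.

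Same-numbered arrays deviated together (r of 0.203, 0.216 and 0.290 for the 3 numbers), so the replicate number was also fitted as a block. The labels call the numbers biological replicates and do not say that same-numbered arrays share an experiment. Other alternatives were a further quantile normalization, median centring, array weights, a filter on dim clusters, other clusters of a gene, removal of clusters with shared values, no fold minimum, leaving out *kpna2* or the *ranbp* genes outside transport, and leaving out each array.

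The members and lists were chosen with earlier results of these data known. The rule for named genes took the importin alpha genes, the called genes and the 2 with the smallest p of each role and list. The other members, and *cse1l*, *rcc1*, *rrm1*, *mcm3*, *pcna*, *plk1*, *lmna*, *lmnb1*, *lmnb2*, *actc1b*, *krt4*, *epcam* and *elavl3*, were named after their values were seen, for their role or their place in the results.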

Additional observations from a re-analysis of the deposited data

How the results depend on the processing

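With the replicate block, as in every other setting that kept *kpna2*, 1 of the 56 genes was lower, none was higher and none was under an adjusted p of 0.05. This gene was *kpna2* each time. It was chosen for its difference on these same arrays, so nothing can be read from the repeated call. Left without *kpna2*, the count lower was 0. The block changed no other call of the family, and over all genes it moved the counts from 200 lower and 164 higher to 480 and 298. The median log2 fold change of the family lay between -0.065 and 0.011 over all settings. The 5 genes without overlap became 2 with arrays centred on their medians, and 7 to 12 with 1 array left out, where fewer arrays overlap less often by construction. The share over all genes is not given for these settings, so the changes cannot be read as particular to the family. None of the 55 genes other than *kpna2* gained a call in any setting, and 32 changed sign in at least 1. Further quantile normalization turned *ranbp3b* to -0.0099, *nup107* to -0.0029, *nup98* to -0.013 and *nup93* to -0.0049. Median centring turned *ranbp3b* to -0.016, *nup107* to -0.012, *nup98* to -0.019, *nup93* to -0.015 and *nup214* to -0.0035. Array weights turned *kpna3* to -0.027, *ranbp3b* to -0.00079, *nup107* to -0.047, *nup93* to -0.024 and *nup214* to -0.012. Leaving out 1 array gave log2 fold changes of -0.075 to 0.14 for *kpna3*, -0.066 to 0.049 for *kpna4*, -0.14 to 0.14 for *kpna5*, -0.0024 to 0.35 for *kpna7*, -0.25 to 0.037 for *kpnb3*, -0.20 to 0.15 for *ipo11*, -0.33 to 0.13 for *tnpo2b*, -0.062 to 0.033 for *tnpo3*, -0.045 to 0.23 for *xpo1a*, -0.038 to 0.16 for *xpo1b*, -0.016 to 0.087 for *xpo4*, -0.055 to 0.13 for *xpo5*, -0.043 to 0.23 for *xpo6*, -0.11 to 0.034 for *xpo7*, -0.11 to 0.00094 for *xpot*, -0.075 to 0.049 for *ran*, -0.061 to 0.050 for *ranbp3b*, -0.043 to 0.022 for *rangap1b*, -0.062 to 0.13 for *nup107*, -0.13 to 0.056 for *nup43*, -0.030 to 0.057 for *nup98*, -0.21 to 0.0053 for *nup205*, -0.18 to 0.043 for *nup35*, -0.11 to 0.034 for *nup188*, -0.059 to 0.086 for *nup93*, -0.12 to 0.018 for *nup58*, -0.15 to 0.0054 for *nup62l*, -0.037 to 0.15 for *nup42*, -0.015 to 0.079 for *nup214*, -0.25 to 0.10 for *nup88*, -0.064 to 0.0027 for *nup210* and -0.066 to 0.13 for *ranbp9*. Of the genes outside the family that changed sign, it gave -0.071 to 0.028 for *cse1l*, -0.0085 to 0.23 for *rcc1*, -0.20 to 0.067 for *plk1* and -0.031 to 0.26 for *piwil1*. The cause of these changes of sign was not tested, and none of these genes was called. The call of *tdp1*, the check of the labels, was lost with array weights, at -0.36, and when 1 array other than tdp1WT replicate 2 was left out, with all these values negative.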

Other observations

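Genes of the nuclear envelope and lamina, the structures in which the pores sit, had a median log2 fold change of -0.10 in tdp1-/- embryos, with 13 of 17 matched genes negative and none called by limma in either direction (beside 1.04% lower and 0.852% higher of all genes). None of the 17 was under an unadjusted p of 0.05 from limma, beside 1.89% of all genes. The mean level of the list was 6.65 to 6.72 on the tdp1WT arrays and 6.54 to 6.59 on the tdp1-/- arrays, with no overlap. The smallest p belonged to *banf1*, a DNA-binding protein that links chromatin to the envelope, with 8.38, 8.49 and 8.61 in tdp1WT and 8.08, 8.29 and 8.12 in tdp1-/-. Its genotypes did not overlap, and its log2 fold change was -0.33 (two-sided exact permutation test, p = 0.1, which the lack of overlap alone fixes). With the replicate block it was the 1 gene of the list called lower, beside 2.49% of all genes. It was also called after further quantile normalization, at -0.34, and median centring, at -0.35, beside 314 and 253 of all genes. It was called too with dim clusters filtered out, with clusters of shared values removed, and without tdp1-/- replicate 2, at -0.39. In these settings 199, 234 and 201 genes of the array were called lower. *Banf1* was not called with array weights, at -0.29, or when any other array was left out. *Emd*, the inner nuclear membrane protein emerin, was at -0.32, with most of the difference in the pair of replicate 3, at -0.70. It was called lower, at -0.45, without tdp1-/- replicate 2, beside 201 of all genes. Of the lamin genes, named for their role, *lmna* and *lmnb2* were at -0.17 and -0.19, while *lmnb1* went the other way, at 0.052.

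Genes of the SUMO pathway, which modifies RanGAP at the pore, gave no call among 16 matched (beside 1.04% lower and 0.852% higher of all genes), with a median of -0.044 and 9 negative, and none was under an unadjusted p of 0.05 from limma with the block or without, beside 1.89% of all genes without it. The smallest p belonged to *sae1*, a subunit of the enzyme that activates SUMO, at -0.32 (two-sided exact permutation test, p = 0.2), and to *sumo2a*, at -0.25, whose cluster was dim at 2.47 in tdp1WT and 2.21 in tdp1-/-. *Sumo2a* was called lower, at -0.45, without tdp1-/- replicate 3, beside 217 of all genes.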
